A study of Mus musculus with 18 samples.

Results

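The genes described here are 40 members of the NF-kB, tumour necrosis factor (TNF) and interleukin-1 signalling system. They were chosen by symbol, with earlier results of these data known, from the 24338 gene symbols that all 18 expression tables share. The members comprise 6 receptors, 11 adaptors, 5 kinases, 5 genes of the IkB family, 3 brakes, 5 NF-kB subunits and 5 classic target genes. RNA-seq of polyadenylated RNA was carried out on inguinal white adipose tissue of mice (iWAT, a subcutaneous depot) and on cultures of its stromal-vascular cells, which hold the precursors of fat cells. Wild-type (WT) and NFIA-Tg samples were compared, the latter transgenic for NFIA, one of the nuclear factor I transcription factors. The 6 groups of 3 samples were WT and NFIA-Tg iWAT, WT and NFIA-Tg cultures at day 0, before differentiation, and WT and NFIA-Tg cultures at day 7. By the series' title, the study asked whether NFIA regulates mitochondrial and inflammatory gene programs in opposite directions in adipocytes. All cultures were grown in medium with fetal bovine serum, and differentiation was induced at confluence with isobutylmethylxanthine, indomethacin, dexamethasone, insulin, T3 and rosiglitazone, followed by insulin, T3 and rosiglitazone. Dexamethasone, a glucocorticoid, and indomethacin, a cyclooxygenase inhibitor, are both anti-inflammatory drugs. They were part of the induction, so the day 7 cultures of both genotypes had received them and the day 0 cultures had not. The sources used here do not give the promoter of the transgene, the age of the mice, or whether each replicate is its own animal or culture. All p-values therefore reflect just the spread among these samples, which may be technical.

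NF-kB is a family of dimeric transcription factors that rest in the cytoplasm bound to IkB inhibitors. Ligation of TNF receptors, the interleukin-1 receptor or Toll-like receptors assembles adaptor complexes that activate the IkB kinase complex, which marks IkB for destruction and frees the dimers to enter the nucleus. A second, slower route runs through the kinase NIK and processing of the p100 subunit. Several targets of NF-kB are its own inhibitors, among them the genes for IkB-alpha and A20, and in fat the system is known for its part in cytokine release and in insulin resistance.

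Because members that inhibit NF-kB can also be its targets, the promoters of the members were searched for the NF-kB consensus motif, which has 10 letters, on both strands and counting overlapping matches. The windows, from RefSeq on build GRCm38.p6, run from 250 bases before to 50 bases after each annotated start. Of the 34 members with a window, 11 held at least 1 match (32.4%), against 1388 of 27025 genes (5.14%). The members were picked as genes of this pathway, targets among them, so these shares are no test of enrichment. The 11 were Il1r1, Tlr2, Il6, Bcl3, Tnfaip3, Rel, Tnip1, Nfkbia, Traf3, Nfkbie and Nfkb2. Nfkb1, Relb, Nfkbiz, Ikbkb, Tlr4 and Vcam1 had no window. The upstream stretches of 5 of the 11 are shown here 5′ to 3′ along the strand of the gene, with motif matches in capitals. They are those of Nfkbia (chr12:55492648-55492706, minus strand), Nfkbie (chr17:45555564-45555633, plus strand), Tnfaip3 (chr10:19015411-19015565, minus strand), Nfkb2 (chr19:46304668-46304736, plus strand) and Il1r1 (chr1:40266336-40266393, plus strand).
Nfkbia: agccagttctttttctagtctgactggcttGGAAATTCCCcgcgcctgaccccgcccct
Nfkbie: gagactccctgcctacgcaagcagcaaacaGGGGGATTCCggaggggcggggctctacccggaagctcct
Tnfaip3: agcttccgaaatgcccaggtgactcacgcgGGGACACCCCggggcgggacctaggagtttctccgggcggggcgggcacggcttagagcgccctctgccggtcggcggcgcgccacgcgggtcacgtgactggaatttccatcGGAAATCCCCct
Nfkb2: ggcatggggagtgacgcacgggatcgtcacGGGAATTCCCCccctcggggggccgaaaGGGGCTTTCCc
Il1r1: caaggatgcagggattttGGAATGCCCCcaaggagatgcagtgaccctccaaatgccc
The match in Nfkbia begins at position -29 from the start, that in Nfkbie at -106 and that in Il1r1 at -232. Nfkb2 and Tnfaip3 each hold more than 1 match in the stretch shown. A match of letters does not show that a factor binds there, and nothing in these data measures binding.

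Levels are given as FPKM, fragments per kilobase scaled to library size, as deposited. The sources used here do not state which gene length went into the iWAT values, and the order of genes within iWAT depends on it. Recovered reads numbered 16772594 to 28625625 per culture library, while the depth of the iWAT libraries is unknown. Nfia, the gene of the transgene, was measured at 3.96 FPKM in WT iWAT and 141 in NFIA-Tg iWAT, and at 6.41 and 11.9 at day 0. At day 7 it went against the label, with 12.5 FPKM in WT and 6.99 in the libraries labelled NFIA-Tg. The cultures are therefore named by their labels, and every genotype direction in them rests on those labels. The 12 macrophage markers summed to 6.67 to 10.7 FPKM in the culture libraries, with C1qa, C1qb, C1qc and Cd163 at 0 in every group. Cd68 (1.96 to 2.43 FPKM), Lyz2 (3.39 to 5.45) and Mertk (0.905 to 1.27), the 3 that passed the filter, were all called higher in the libraries labelled NFIA-Tg at day 0, and at day 7 Cd68 was called higher (2.66 to 6.98) and Mertk lower (3.84 to 1.64). Their part in the culture results was not tested. The 8 adipocyte markers summed at day 0 to 16.9 to 19.6 FPKM in WT and 37.1 to 48.3 in the libraries labelled NFIA-Tg. At day 7 they summed to 24318 to 28673 and 25796 to 29371. Of 7 measured, 5 were called higher in the libraries labelled NFIA-Tg at day 0, and 2 were called lower at day 7. The genotype effect was called lower at day 7 than at day 0 for all 7. The part of fat cell differentiation in the culture results was not tested. In bulk samples, fewer cells of a type and less RNA per cell cannot be told apart.

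Across the 6 groups the members were moderately expressed, and their levels spanned more than the genotype did. Tnfrsf1a, the main TNF receptor, was the highest member in WT iWAT at 113 ± 7.59 FPKM (mean ± SD, n = 3 here and below), followed by Irak2 at 59.8 ± 3.11, the IkB-alpha gene Nfkbia at 55.4 ± 6.75 and the subunit Rela at 35.1 ± 3.3. In WT cultures at day 0 the highest were Tnfrsf1a at 133 ± 0.524 and the adhesion molecule Vcam1 at 106 ± 3.63, then the receptor Il1r1 at 61.7 ± 4.92 and Tnfaip2 at 53.1 ± 0.389. The median member lay at 9.14 FPKM in WT iWAT, 11 at day 0 and 6.39 at day 7 in WT, and at 8.61, 11.6 and 5.93 in the matching NFIA-Tg groups. The iWAT and culture tables were made separately, so levels in tissue and cultures stand side by side and are not compared by a test. At the low end, Tnf in every group, Traf1 in cultures, Rel in iWAT and Il6 in iWAT and at day 7 had means under 1 FPKM. So did Nfkbie at day 7, and Tlr2 and Icam1 at day 7 in the libraries labelled NFIA-Tg.

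**Figure D1:**
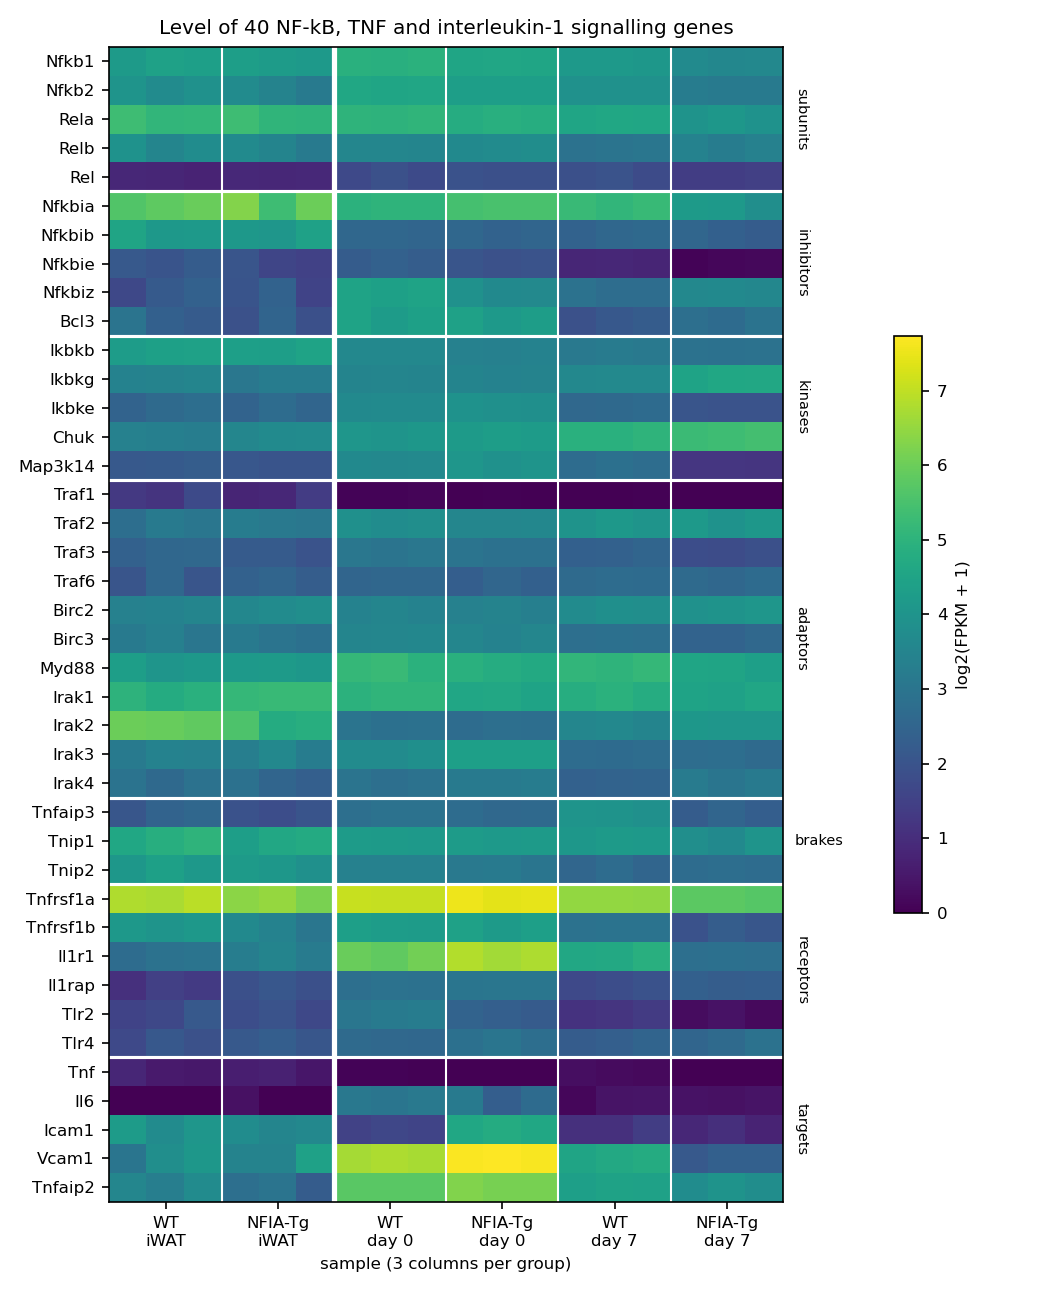
Level of each of the 40 members in each of the 18 samples, as log2(FPKM + 1), with 3 columns per group and members ordered by role. The label inhibitors marks the genes of the IkB family. The thick line parts the iWAT tables from the culture tables. Tnfrsf1a is bright in every group, Vcam1 and Il1r1 are brightest at day 0, and Tnf is dark throughout.

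Differences were tested on log2(FPKM + 1) with limma across all genes, and a gene was called at a Benjamini-Hochberg adjusted p under 0.05. In iWAT, 5 of the 37 members that passed the filter on low values were called for genotype (1 higher, 4 lower), where 11.4% of all genes tested were called, 5.96% higher and 5.44% lower. At day 0, 27 of 38 were called (14 higher, 13 lower), against 63% of all genes, 28.1% higher and 34.9% lower. At day 7, 33 of 38 were called (11 higher, 22 lower), against 80.9% of all genes, 29.8% higher and 51.1% lower. The share called among the members was 13.5% in iWAT, 71.1% at day 0 and 86.8% at day 7, each near its background, so the share itself is not a result about these genes. The median member difference was -0.10 in iWAT, -0.05 at day 0 and -0.34 at day 7 on the log2 scale, beside medians over all genes of 0.05, -0.03 and -0.17. With quantile normalization the day 7 median over all genes moved from -0.17 to -0.03 and the split of all calls from 3746 higher and 6409 lower to 4670 and 5197, and that of the members to 14 higher and 19 lower. Another scaling moved the all-gene split in iWAT from 739 higher and 674 lower to 577 and 864, and that at day 0 from 3533 and 4378 to 4348 and 3503 (median-of-ratios). No called member changed direction under either scaling. The 3 samples of each genotype did not overlap for 5 members higher and 8 lower in iWAT, where 20.5% and 13.9% of all genes were so separated. At day 0 this held for 14 higher and 13 lower (31.6% and 38.6% of all genes). At day 7 it held for 10 higher and 22 lower (29.8% and 51.4% of all genes).

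**Figure D2:**
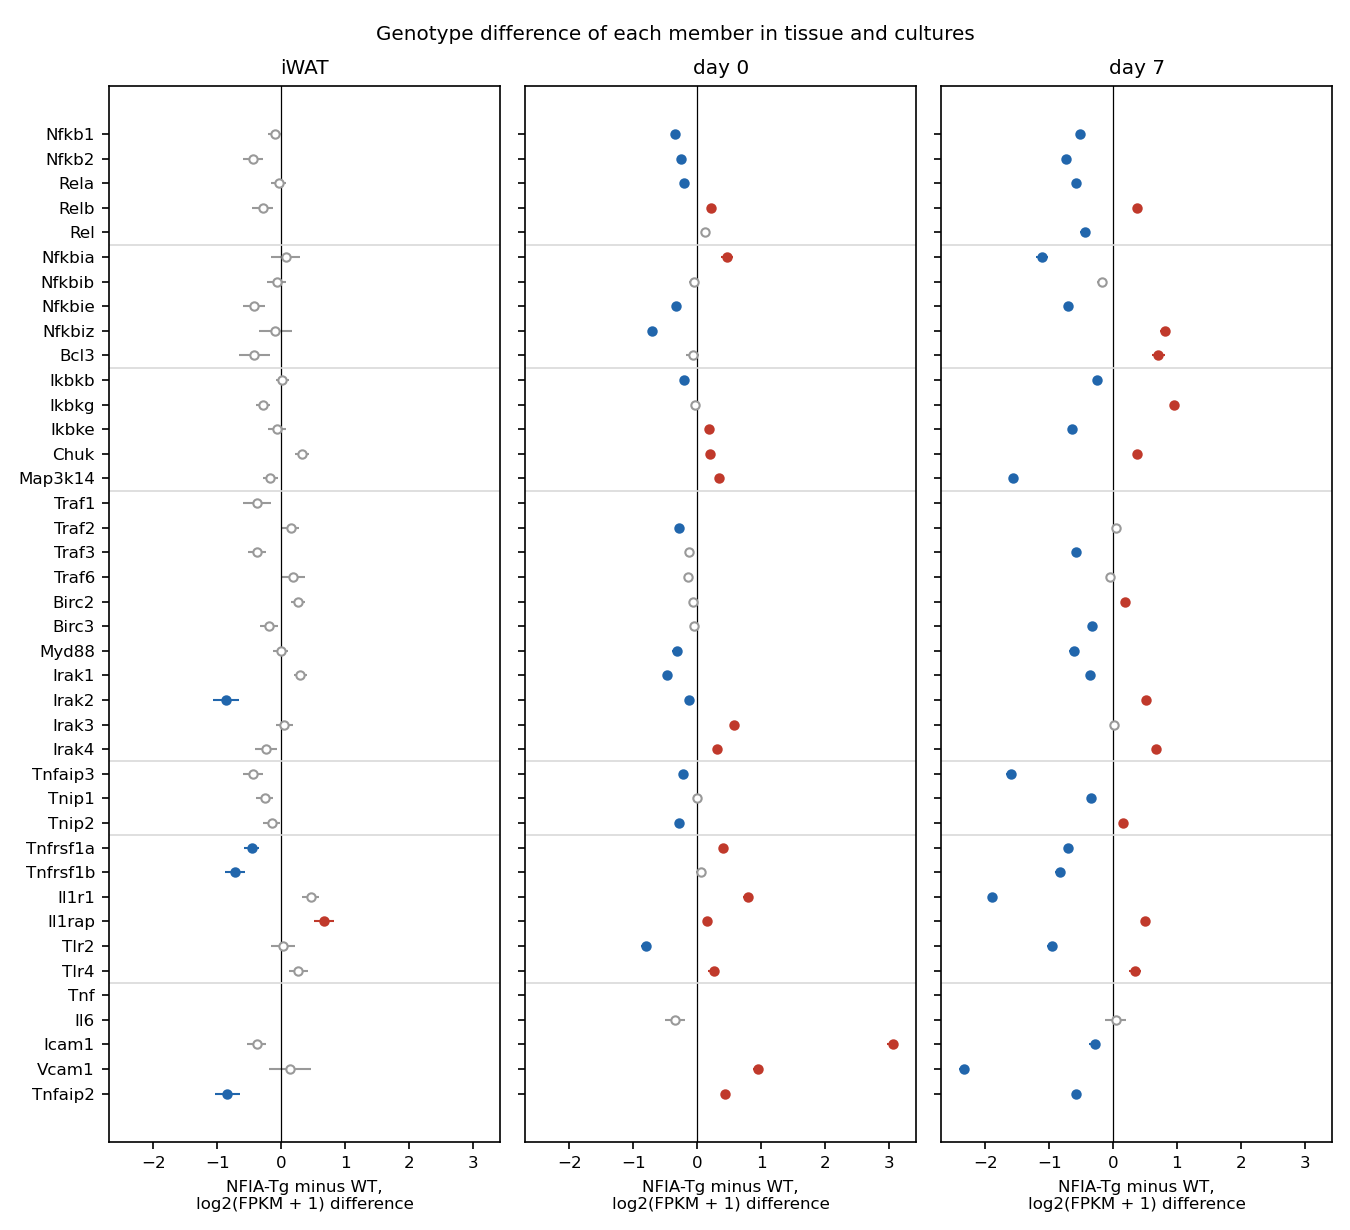
Genotype difference of each member (NFIA-Tg minus WT, log2(FPKM + 1)) in iWAT, at day 0 and at day 7, on 1 common scale. Points are limma estimates with their standard errors, filled red where called higher, filled blue where called lower and open where not called, and a missing point is a member below the filter. Icam1 stands farthest to the right at day 0 with 3.06, and Vcam1 and Il1r1 farthest to the left at day 7 with -2.34 and -1.89.

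The receptors that start the pathway were among the members with the largest differences. Tnfrsf1a, which carries most TNF signalling, was measured at 111, 107 and 121 FPKM in the WT iWAT samples and at 82.9, 91.1 and 72 in NFIA-Tg iWAT. All 3 NFIA-Tg samples lay below all 3 WT samples, with a difference of -0.46 ± 0.12 (log2, SE; adjusted p = 0.0389). In cultures at day 0 it read 134, 133 and 133 in WT and 183, 171 and 174 in the libraries labelled NFIA-Tg. The day 7 values were 87.7, 87.6 and 86.5 in WT and 54.7, 54.4 and 50.5 in the libraries labelled NFIA-Tg. The groups did not overlap at either day and the order reversed: Tnfrsf1a was 1.32-fold higher in the labelled NFIA-Tg group at day 0 (adjusted p = 2.27e-06) and 1.64-fold lower at day 7 (adjusted p = 4.02e-09). The difference between both genotype effects was itself called (-1.11 ± 0.06, adjusted p = 3.39e-09).

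Tnfrsf1b, the second TNF receptor, found mainly on immune and endothelial cells, was lower in NFIA-Tg iWAT. Its samples read 16.6, 15.2 and 16.4 FPKM in WT and 11.7, 9.68 and 7.16 in NFIA-Tg, without overlap (-0.72 ± 0.16, adjusted p = 0.0271). The 10 endothelial markers summed to 964 to 1001 FPKM in WT iWAT and to 509 to 691 in NFIA-Tg iWAT, and 6 of the 10 were called lower. The 12 macrophage markers summed to 903 to 1157 and 871 to 1042 with none called, and the 10 lymphocyte markers to 11.8 to 28.8 and 7.8 to 16.4 with none of the 5 measured called. The 8 neutrophil and mast cell markers summed to 41 to 57.8 in WT and to 55.3 to 91 in NFIA-Tg. Of 6 measured, 1 was called higher, S100a8 (mean 9.41 to 31.6 FPKM). The others were split. Means were lower in NFIA-Tg for S100a9 (4.3 to 1.69), Csf3r (2.05 to 1.82), Retnlg (0.744 to 0.146) and Kit (5.91 to 3.2). They were higher for Cpa3 (8.36 to 13.8), Cma1 (16.1 to 21.2) and Cxcr2 (0.0685 to 0.0827). The part of these cell types in the iWAT differences was not tested. In cultures, Tnfrsf1b read 18.5 ± 0.926 in WT and 19.4 ± 1.59 in the labelled NFIA-Tg group at day 0, where it was not called. Its day 7 values were 6.48, 6.69 and 6.64 against 2.84, 3.87 and 3.16, a 2.01-fold lower level with no overlap (adjusted p = 8.03e-07). The difference between the day 0 and day 7 effects was called for Tnfrsf1b as well (-0.89 ± 0.11, adjusted p = 1.59e-05).

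Il1r1 encodes the signalling receptor for interleukin-1, and Il1rap its partner chain, without which the receptor does not signal. At day 0 Il1r1 read 62, 56.7 and 66.5 FPKM in WT and 113, 100 and 109 in the libraries labelled NFIA-Tg. By day 7 it read 24.1, 24.4 and 28.2 in WT and 6.15, 6.17 and 6.15 in the libraries labelled NFIA-Tg. The receptor was thus 1.74-fold higher at day 0 and 4.15-fold lower at day 7, with no overlap at either day (adjusted p = 7.84e-07 and 8.91e-11). Il1rap moved in the same direction at day 0 and in the opposite direction at day 7. It was called higher at day 0 (6.37 ± 0.188 to 7.15 ± 0.0709 FPKM) and at day 7 (2.54 ± 0.286 to 4 ± 0.162, 1.57-fold, adjusted p = 4.17e-06). The day 0 call of Il1rap, at an adjusted p of 0.0429, was lost under several alternatives, including leaving out any 1 of the 6 day 0 libraries (adjusted p = 0.0631 to 0.131). In iWAT, Il1rap read 1.09, 1.77 and 1.49 FPKM in WT and 2.68, 3.31 and 2.69 in NFIA-Tg, the 1 member called higher there (0.67 ± 0.16, adjusted p = 0.033). Il1r1 in iWAT read 5.6, 6.61 and 6.84 against 8.68, 10.2 and 8.36, which did not overlap but missed the threshold (adjusted p = 0.0558).

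The Toll-like receptors Tlr2 and Tlr4, sensors of bacterial lipoprotein and of lipopolysaccharide, moved in opposite directions with genotype in cultures. Tlr2 read 7.13, 7.93 and 8.42 FPKM in WT and 4.54, 4.02 and 3.68 in the libraries labelled NFIA-Tg at day 0 (-0.80 ± 0.08, adjusted p = 3.82e-06). At day 7 it had fallen in both, to 1.19, 1.31 and 1.53 in WT and to 0.185, 0.292 and 0.146 in the libraries labelled NFIA-Tg, the latter from 7 to 22 reads per library. All libraries labelled NFIA-Tg lay below all WT libraries at both days. Tlr4 was called higher at both days, at 5.2 ± 0.188 and 6.44 ± 0.594 FPKM at day 0 and at 4.15 ± 0.396 and 5.54 ± 0.898 at day 7. The day 0 call of Tlr4 (adjusted p = 0.0269) was lost without a filter on low values (adjusted p = 0.0514) and when WT replicate 2 or 3 or NFIA-Tg replicate 2 was left out (adjusted p = 0.0651, 0.0737 and 0.11). In iWAT neither was called, with Tlr2 at 2.54 ± 0.853 and 2.56 ± 0.392 and Tlr4 at 2.8 ± 0.548 and 3.56 ± 0.372.

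Among the 11 adaptors, Irak2 was the 1 called in iWAT. Irak2, an interleukin-1 receptor associated kinase that sustains signalling downstream of MyD88, read 62.4, 60.5 and 56.3 FPKM in WT iWAT and 46.7, 26.1 and 28 in NFIA-Tg iWAT. The groups did not overlap, although NFIA-Tg replicate 1 lay closer to the WT samples than to the other NFIA-Tg samples, and the difference of -0.86 ± 0.20 was the largest among the members called in iWAT (adjusted p = 0.031). In cultures Irak2 read 6.95, 6.27 and 6.44 in WT and 5.69, 6.04 and 5.92 in the libraries labelled NFIA-Tg at day 0. The day 7 values were 10.8, 11.1 and 10.3 in WT and 16, 15.8 and 15.7 in the libraries labelled NFIA-Tg. The small day 0 difference (-0.13 ± 0.04, adjusted p = 0.0212) was lost under median-of-ratios scaling (adjusted p = 0.213), quantile normalization (adjusted p = 0.0525) and without replicate 1 of either genotype (adjusted p = 0.1 for WT and 0.0758 for NFIA-Tg). The day 7 increase of 1.47-fold was called (adjusted p = 2.61e-07), and the iWAT effect differed from the day 7 effect (-1.38 ± 0.23, adjusted p = 0.000305).

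The other receptor-proximal members of the interleukin-1 and Toll-like receptor route were split. Myd88, the adaptor both receptor classes share, was lower in the libraries labelled NFIA-Tg at day 0 (33.8 ± 3.69 to 27 ± 2.2 FPKM) and day 7 (33 ± 1.56 to 21.3 ± 1.3, -0.61 ± 0.08). Irak1, a kinase recruited by MyD88, was also lower at both days, from 31.9 ± 1.23 to 22.8 ± 1.17 and from 27.9 ± 1.3 to 21.6 ± 1.12. Irak3, which lacks kinase activity and restrains the pathway, was higher at day 0, with 12.4, 12.3 and 13.4 FPKM in WT and 19.5 in each of the 3 libraries labelled NFIA-Tg (0.58 ± 0.04, adjusted p = 2.85e-07). At day 7 Irak3 read 5.66 ± 0.184 and 5.72 ± 0.261 and was not called, except under median-of-ratios scaling and quantile normalization (lowest adjusted p = 0.000575). Irak4, the kinase at the top of the cascade, was called higher at day 0 (6.5 ± 0.392 to 8.28 ± 0.223) and day 7 (4.47 ± 0.179 to 7.74 ± 0.723). Exons of Irak4 overlap those of Twf1 on the opposite strand, and the sources used here do not say whether the counting used strand, so reads of both genes may not be told apart. Twf1 read 47.2 and 73.9 FPKM at day 0 and 35.5 and 57.1 at day 7, moving in the same direction as Irak4, and its part in the Irak4 values was not tested. In iWAT none of Myd88, Irak1, Irak3 and Irak4 was called, and Irak1 came nearest with 28.8 ± 2.33 and 35.7 ± 1.02 (adjusted p = 0.0852).

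Among the TNF receptor associated factors and their partner ubiquitin ligases, the largest genotype difference in cultures was that of Traf3 at day 7. Traf2, which links TNF receptors to the IkB kinases, was lower at day 0 (13.3 ± 0.575 to 10.8 ± 0.157 FPKM) and read 15.4 ± 0.924 and 15.8 ± 1.25 at day 7, where it was not called. Traf3, which holds NIK at a low level, was lower at day 7 (4.38 ± 0.287 to 2.59 ± 0.126, -0.58 ± 0.05) and not called at day 0. Birc2 and Birc3, which encode ubiquitin ligases bound to TRAF2, moved apart at day 7: Birc2 was higher (13 ± 0.656 to 14.9 ± 0.741) and Birc3 lower (6.18 ± 0.113 to 4.73 ± 0.368), the latter not called under quantile normalization (adjusted p = 0.109). Traf6, which serves the interleukin-1 route, missed the threshold in all 3 genotype comparisons, at 4.91 ± 0.133 and 4.35 ± 0.492 at day 0 and 5.52 ± 0.113 and 5.29 ± 0.31 at day 7. It was called lower at day 0 with voom on recovered reads (adjusted p = 0.0446) and without NFIA-Tg replicate 2 (adjusted p = 0.00509), and higher at day 7 under quantile normalization (adjusted p = 0.0237). Traf1 held 0 to 7 reads in every culture library and fell below the filter there. In iWAT, Traf1 read 1.66 ± 0.57 and 1.05 ± 0.469 and, like Traf2, Traf3, Traf6, Birc2 and Birc3, was not called.

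The kinases were divided by subunit at day 7. Map3k14, which encodes NIK, the kinase of the slower route, read 11.7, 11.2 and 11.4 FPKM in WT and 15.6, 14 and 15 in the libraries labelled NFIA-Tg at day 0. By day 7 the values were 5.64, 6.2 and 5.82 in WT and 1.33, 1.35 and 1.31 in the libraries labelled NFIA-Tg. It was therefore 1.3-fold higher at day 0 and 4.42-fold lower at day 7, without overlap (adjusted p = 4.52e-05 and 2.32e-11). Ikbkg, the regulatory subunit NEMO of the IkB kinase complex, moved the other way at day 7, with 11.2, 11.4 and 11.6 FPKM in WT and 21.2, 23.4 and 24.1 in the libraries labelled NFIA-Tg (2.01-fold, adjusted p = 1.26e-09). At day 0 Ikbkg read 10.3 ± 0.0698 and 10 ± 0.282 and was not called. Of the catalytic subunits, Chuk (IKK-alpha) was higher at day 0 (15.6 ± 0.385 to 18.1 ± 0.644) and day 7 (30.1 ± 1.48 to 39.6 ± 2.19), and Ikbkb (IKK-beta) lower at both, from 11.2 ± 0.116 to 9.58 ± 0.251 and from 7.94 ± 0.402 to 6.51 ± 0.0978. The day 7 call of Ikbkb was lost under quantile normalization (adjusted p = 0.263). Ikbke, an IkB kinase related enzyme, was higher at day 0 (12 ± 0.155 to 13.9 ± 0.499) and lower at day 7 (5.28 ± 0.237 to 3.01 ± 0.0966, 1.76-fold). None of the 5 kinases was called in iWAT, where Chuk read 9.13 ± 0.457 and 11.7 ± 0.813 and Ikbkg 10.1 ± 0.363 and 8.12 ± 0.649 (adjusted p = 0.086 and 0.134). For Map3k14, Ikbke and Ikbkg the iWAT effect differed from that at day 7, by 1.39 ± 0.11, 0.57 ± 0.14 and -1.23 ± 0.11, the call of Ikbke being lost under quantile normalization (adjusted p = 0.083).

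Among the IkB family genes, the genotype difference reversed in Nfkbia, the gene for IkB-alpha, whose promoter stretch is shown above. In iWAT it read 48.6, 55.5 and 62.1 FPKM in WT and 77.9, 39.1 and 63.1 in NFIA-Tg, with all WT values inside the range of the NFIA-Tg values, whose SD was 19.6 (adjusted p = 0.875). At day 0 it read 30.4, 31.7 and 31.6 in WT and 42.4, 44.4 and 44.4 in the libraries labelled NFIA-Tg. At day 7 it read 37.2, 32.9 and 36.3 in WT and 17.6, 17.3 and 13.2 in the libraries labelled NFIA-Tg. Nfkbia was 1.4-fold higher at day 0 and 2.22-fold lower at day 7 without overlap, and the difference between the effects was -1.58 ± 0.12 (adjusted p = 1.41e-07). Nfkbiz, a nuclear IkB protein that acts on selected target genes such as Il6, took the opposite course. It read 21.3, 20.1 and 21.5 in WT and 14.1, 11.8 and 11.6 in the libraries labelled NFIA-Tg at day 0 (-0.70 ± 0.07), and 6.53, 5.73 and 5.85 against 11.3, 11.7 and 11 at day 7 (0.81 ± 0.07).

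Bcl3, another nuclear member of the IkB family, read 19.8 ± 1.63 and 18.8 ± 1.89 FPKM at day 0, where it was not called, and 2.82, 3.41 and 3.79 against 6.04, 5.52 and 6.73 at day 7. It was 1.82-fold higher at day 7 in the libraries labelled NFIA-Tg (adjusted p = 1.92e-05). Nfkbie, the gene for IkB-epsilon, was lower at both days, from 3.94 ± 0.274 to 2.93 ± 0.146 at day 0 and from 0.773 ± 0.0485 to 0.0925 ± 0.0302 at day 7, the last from 4 to 6 reads per library against 39 to 47. Nfkbib, the gene for IkB-beta, was called in none of the 7 comparisons, with 18.5 ± 3.07 and 17.6 ± 2.63 in iWAT, 4.93 ± 0.164 and 4.72 ± 0.281 at day 0 and 4.9 ± 0.434 and 4.24 ± 0.551 at day 7. Its day 7 adjusted p was 0.0545, and it passed the threshold when replicate 1 of either day 7 group was left out (lowest adjusted p = 0.00726). No IkB family member was called in iWAT. There Nfkbiz read 3.34 ± 1.07 and 3.11 ± 1.24, Bcl3 4.93 ± 1.76 and 3.39 ± 1.11, and Nfkbie 3.43 ± 0.373 and 2.33 ± 0.689.

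**Figure D3:**
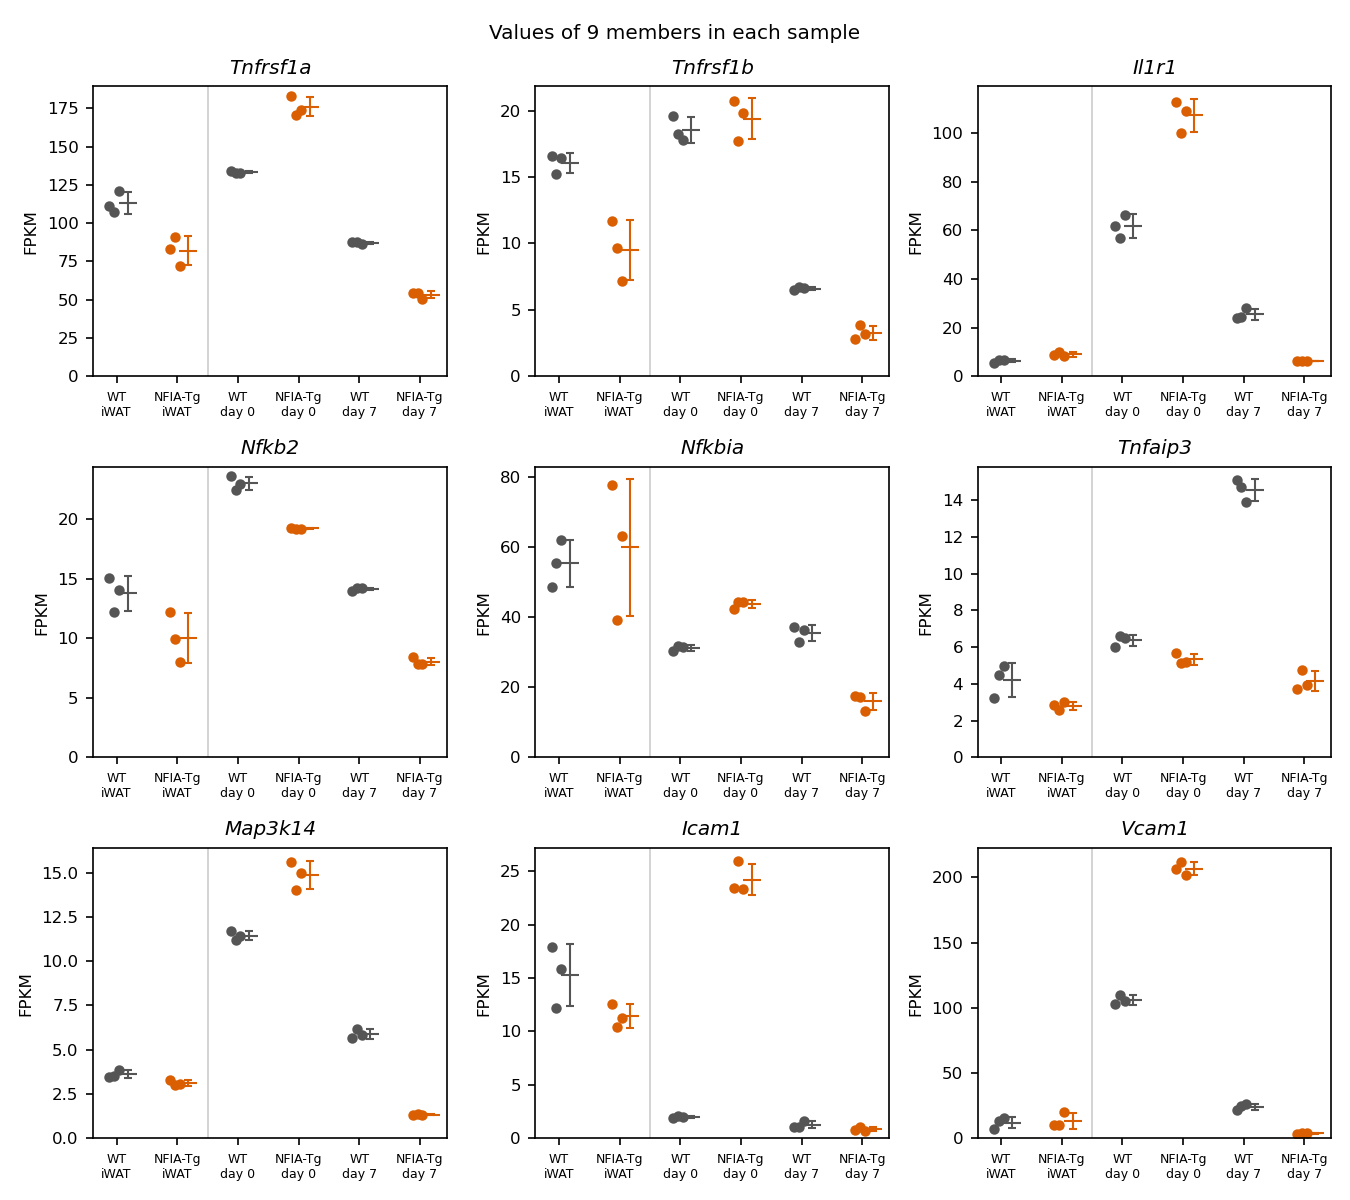
FPKM of 9 members in each sample of the 6 groups. Points are samples, and the bar beside them gives the mean and SD of the 3, with WT in grey and NFIA-Tg in orange; the vertical line parts iWAT from cultures. Tnfrsf1a, Il1r1, Nfkbia, Map3k14, Icam1 and Vcam1 are higher in orange at day 0 and lower in orange at day 7.

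The brakes on the pathway diverged at day 7. Tnfaip3 encodes A20, a ubiquitin editing enzyme that ends TNF and Toll-like receptor signalling. In iWAT it read 3.21, 4.47 and 4.96 FPKM in WT and 2.83, 2.58 and 3.02 in NFIA-Tg (adjusted p = 0.117). At day 0 it read 6.03, 6.59 and 6.51 against 5.68, 5.16 and 5.19, and at day 7 15.1, 14.7 and 13.9 against 3.73, 4.78 and 3.93. Every library labelled NFIA-Tg lay below every WT library at both days, and the level was 3.52-fold lower at day 7 (-1.60 ± 0.07, adjusted p = 4.88e-10). The smaller day 0 difference (adjusted p = 0.0174) was lost under median-of-ratios scaling (adjusted p = 0.0981) and when WT replicate 2 or 3 or NFIA-Tg replicate 2 or 3 was left out (adjusted p = 0.0526 to 0.0587). Tnip1, which encodes an A20 binding partner, read 17.5 ± 0.487 and 17.6 ± 0.367 at day 0 and was lower at day 7 (16.9 ± 0.888 to 13.2 ± 1.62). Tnip2, a second A20 partner, was lower at day 0 (9.53 ± 0.0465 to 7.6 ± 0.461) and read 4.84, 5.7 and 4.78 against 5.64, 6 and 5.67 at day 7. These day 7 groups overlapped, and the call of Tnip2 there (0.15 ± 0.06, adjusted p = 0.0351) was lost without filter on low values (adjusted p = 0.0514), with voom on recovered reads (adjusted p = 0.0545) and without WT replicate 1 or 3 or NFIA-Tg replicate 2 (adjusted p = 0.121, 0.131 and 0.11). In iWAT, Tnip1 at 27.6 ± 3.92 and 22.9 ± 3.05 and Tnip2 at 17.6 ± 2.14 and 15.8 ± 1.82 were not called.

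Among the DNA-binding subunits, 3 of 5 were lower in the libraries labelled NFIA-Tg at both days, as were 22.5% of all genes. Nfkb1, which encodes the p105 precursor of p50, read 28.9, 28.7 and 29.7 FPKM in WT and 22.6, 23.1 and 22.6 at day 0, and 16.7, 16.8 and 16.1 against 12, 10.9 and 11.1 at day 7. Rela, the p65 subunit, read 31.8, 31.1 and 32.6 against 26.8, 28.4 and 27.1 at day 0, and 22.3, 23.5 and 23 against 14.8, 16 and 14.3 at day 7. Neither gene's groups overlapped at either day. Nfkb1 was lower by 1.28-fold and 1.46-fold and Rela by 1.16-fold and 1.52-fold (adjusted p between 0.00127 and 8.06e-08 for Rela and 1.14e-05 and 1.07e-07 for Nfkb1). Nfkb2, the p100 precursor of p52 in the slower route, read 23.6, 22.5 and 23 against 19.3, 19.2 and 19.2 at day 0 and 14, 14.2 and 14.2 against 8.42, 7.83 and 7.88 at day 7, a 1.75-fold lower level. Relb, the partner of p52, went the other way, from 10.6 ± 0.116 to 12.4 ± 0.543 at day 0 and from 6.91 ± 0.343 to 9.3 ± 0.692 at day 7 (0.38 ± 0.05, adjusted p = 3.23e-05). Rel, found mainly in lymphoid cells, read 2.45 ± 0.255 and 2.76 ± 0.0687 at day 0, was not called there, and was lower at day 7 (2.66 ± 0.27 to 1.69 ± 0.0763).

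In iWAT no subunit was called. Nfkb1 read 17.6, 20.3 and 19.8 FPKM in WT and 19, 17.8 and 16.7 in NFIA-Tg, and Rela 38.9, 32.9 and 33.5 against 39.1, 32.2 and 31.5, with overlapping groups for both (adjusted p = 0.558 and 0.872). Nfkb2 read 15.1, 12.2 and 14.1 against 12.2, 9.94 and 8.01, and Relb 14.4, 10.5 and 12.7 against 12.1, 10.3 and 8.03, neither past the threshold (adjusted p = 0.113 and 0.301). Rel, at 0.764 ± 0.0456 and 0.845 ± 0.0278, was below the filter. The iWAT effect differed from the day 7 effect for Nfkb1 (0.41 ± 0.11), Rela (0.54 ± 0.13), Relb (-0.67 ± 0.19) and Rel (0.51 ± 0.12). Those of Nfkb1 and Rela rest on the scaling: with median-of-ratios scaling their adjusted p was 0.0997 and 0.0527.

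In cultures, the targets Icam1 at day 0 and Vcam1 at day 7 had the largest genotype differences among the members. Vcam1 and Icam1 encode adhesion molecules that bind leukocyte integrins. Vcam1 read 103, 110 and 105 FPKM in WT and 206, 212 and 202 in the libraries labelled NFIA-Tg at day 0, and 21.7, 24.4 and 26.3 against 3.51, 4.21 and 4.21 at day 7. The groups stood far apart at both days and in opposite order, 1.94-fold higher and 6.07-fold lower (adjusted p = 1.62e-07 and 1.61e-11). Icam1 read 1.9, 2.12 and 2.03 in WT and 23.4, 25.9 and 23.3 in the libraries labelled NFIA-Tg at day 0, a 12-fold difference (3.06 ± 0.09, adjusted p = 1.37e-10). At day 7 Icam1 was near 1 FPKM in both, with 1.1, 1.09 and 1.64 against 0.805, 1.04 and 0.717. That call (adjusted p = 0.0126) was lost under quantile normalization (adjusted p = 0.142) and without replicate 3 of either day 7 group (adjusted p = 0.0568 for WT and 0.0537 for NFIA-Tg). In iWAT neither was called: Vcam1 read 7.09, 13.2 and 15.9 against 10, 9.94 and 20.3, with overlap, and Icam1 17.9, 12.2 and 15.8 against 12.6, 10.4 and 11.3 (adjusted p = 0.819 and 0.144).

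Tnfaip2, a TNF-inducible gene of endothelial and myeloid cells, was the fifth member called in iWAT, with 10.6, 8.92 and 12.3 FPKM in WT and 6.15, 6.81 and 3.75 in NFIA-Tg (-0.84 ± 0.20, adjusted p = 0.0346). In cultures it read 52.7, 53.1 and 53.5 against 76.5, 69.6 and 69.6 at day 0 and 19.7, 21.1 and 20.6 against 12.6, 14.7 and 12.9 at day 7. Its groups did not overlap in any of the 3 settings, and it was 1.9-fold lower in iWAT, 1.35-fold higher at day 0 and 1.53-fold lower at day 7. The cytokine Tnf itself was scarce everywhere. It read 0.77, 0.458 and 0.414 FPKM in WT iWAT and 0.582, 0.629 and 0.383 in NFIA-Tg iWAT. In cultures it had 1 to 2 reads per WT library at day 0 and 5 to 9 at day 7, and 0 reads in all 6 libraries labelled NFIA-Tg, too few for a test. Il6, the gene for interleukin-6, was listed at 0 in the 3 WT iWAT samples and read 0.273, 0 and 0 in NFIA-Tg iWAT. At day 0 Il6 read 7.55, 7.05 and 7.8 in WT and 7.95, 3.95 and 5.57 in the libraries labelled NFIA-Tg, with overlap (adjusted p = 0.0737). It was called lower there with voom on recovered reads and when NFIA-Tg replicate 1 was left out (lowest adjusted p = 0.0014). At day 7 it read 0.105, 0.327 and 0.358 against 0.297, 0.266 and 0.314, from 3 to 9 reads per library, and was not called.

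None of the 5 iWAT calls held under every alternative. Irak2, Tnfrsf1a, Tnfrsf1b, Tnfaip2 and Il1rap each lost its call without a filter on low values, and 0 to 3 members were called when 1 library was left out. Without WT replicate 3 none remained past the threshold (adjusted p = 0.0761, 0.135, 0.0877, 0.114 and 0.0888 in that order). Without WT replicate 1 all 5 were lost as well (adjusted p = 0.0646 to 0.0755), and the 1 member called was Tnfaip3, lower (adjusted p = 0.0471). Of the 5, 3 held without NFIA-Tg replicate 1 and 1 held without each of WT replicate 2, NFIA-Tg replicate 2 and NFIA-Tg replicate 3. With replicate number as a block, Tnfrsf1a (adjusted p = 0.0728) and Tnfaip2 (adjusted p = 0.0604) lost their calls. With quantile normalization 2 members were called higher and 4 lower, Il1r1 joining Il1rap. At an unadjusted p under 0.05, 15 members passed, where 28.6% of all genes did.

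Most members fell between day 0 and day 7 in both genotypes. In WT, 32 of 38 measured members were called between day 0 and day 7 (6 higher, 26 lower), where 81.6% of all genes were called, 46.2% higher and 35.4% lower. In the libraries labelled NFIA-Tg 33 were called (6 higher, 27 lower), where 87.2% of all genes were called, 45.7% higher and 41.5% lower. The median member change was -0.58 in WT and -0.77 in NFIA-Tg, beside all-gene medians of 0.09 and 0.05. In WT the all-gene split of 5796 higher and 4450 lower became 4775 and 5486 under quantile normalization, its median moving to -0.05, with 4 members higher and 28 lower. In both genotypes 22 members fell, where 29.1% of all genes did, and 5 rose, where 35.8% of all genes did, the latter being Ikbkg, Chuk, Traf2, Birc2 and Irak2. The rises of Ikbkg and Traf2 in WT were lost under median-of-ratios scaling (adjusted p = 0.738 and 0.214) and quantile normalization (adjusted p = 0.746 and 0.456), and that of Ikbkg also without WT day 7 replicate 3 (adjusted p = 0.0544). The 8 preadipocyte and fibroblast markers, which sum the genes of undifferentiated stromal cells, went from 4572 to 4758 FPKM at day 0 to 1010 to 1134 at day 7 in WT, and from 4862 to 5513 to 232 to 317 in the libraries labelled NFIA-Tg. The part of this difference in the members' changes was not tested. The day 7 cultures had also received the induction drugs and the day 0 cultures had not. Differentiation and drug exposure therefore cannot be told apart here.

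Among the members that fell, Il6 dropped from 7.47 ± 0.378 to 0.263 ± 0.138 FPKM in WT (-2.75 ± 0.16) and from 5.82 ± 2.01 to 0.292 ± 0.0243 in the libraries labelled NFIA-Tg (-2.36 ± 0.16). Bcl3 fell by 5.92-fold in WT and 3.08-fold in NFIA-Tg. Tlr2 fell by 5.84-fold and 19.6-fold, Nfkbie by 5.1-fold and 31.7-fold, and Tnfaip2 by 2.6-fold and 5.37-fold. The NFIA-Tg day 7 levels of Tlr2 and Nfkbie rest on 7 to 22 and 4 to 6 reads per library. Some members fell further in the libraries labelled NFIA-Tg, among them both adhesion genes, the receptors Il1r1 and Tnfrsf1b and the kinase Map3k14. Vcam1 fell 4.4-fold in WT and 52-fold in NFIA-Tg, Il1r1 2.42-fold and 17.5-fold, Icam1 1.58-fold and 28.3-fold, Map3k14 1.94-fold and 11.2-fold, and Tnfrsf1b 2.81-fold and 5.9-fold. For these 5 genes the difference between genotypes was called, at -3.29 ± 0.10 for Vcam1, -2.68 ± 0.10 for Il1r1, -3.35 ± 0.13 for Icam1, -1.91 ± 0.07 for Map3k14 and -0.89 ± 0.11 for Tnfrsf1b. The receptor Il1rap fell less in NFIA-Tg (-0.71 ± 0.06 against -1.06 ± 0.06 in WT, difference 0.35 ± 0.08), and Tlr4 was called lower in WT (-0.27 ± 0.09) and not in NFIA-Tg (-0.19 ± 0.09), with no called difference between genotypes (0.08 ± 0.13). The WT call of Tlr4 was lost without replicate 1 of WT day 0 or of WT day 7 (adjusted p = 0.0553 and 0.0711). In NFIA-Tg it was called lower under median-of-ratios scaling (adjusted p = 0.0164) and with voom on recovered reads (adjusted p = 0.0242). It was also called there without NFIA-Tg day 7 replicate 3 (adjusted p = 0.00552). Tlr2 and Il6 had no called difference on the log2(FPKM + 1) scale (-0.16 ± 0.12 and 0.39 ± 0.23). The Tlr2 difference was larger and called with a pseudocount of 0.1 (-1.32, adjusted p = 0.000213) and with voom on recovered reads (-1.69, adjusted p = 0.000255), and that of Il6 was called without NFIA-Tg day 0 replicate 1 (0.61, adjusted p = 0.0046). Other members with marked falls were Nfkbiz in WT (-1.64 ± 0.07), Ikbke in both (-1.05 ± 0.04 and -1.89 ± 0.04), Irak3 in both (-1.04 ± 0.04 and -1.61 ± 0.04), and Nfkbia and Tnfrsf1a in NFIA-Tg (-1.41 ± 0.09 and -1.71 ± 0.04).

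Tnfaip3 was the 1 member called higher in WT and lower in NFIA-Tg during differentiation, a pattern of 5.23% of all genes. It rose from 6.38 ± 0.302 to 14.6 ± 0.587 FPKM in WT (1.08 ± 0.07) and fell from 5.35 ± 0.293 to 4.15 ± 0.557 in the libraries labelled NFIA-Tg (-0.31 ± 0.07), a called difference of -1.39 ± 0.10. Irak2 rose in both, 1.64-fold and 2.69-fold, and Chuk 1.93-fold and 2.19-fold. Nfkbia was not called in WT (31.2 ± 0.721 to 35.5 ± 2.28, adjusted p = 0.0717) and fell 2.73-fold in NFIA-Tg. Nfkbiz fell 3.47-fold in WT and was not called in NFIA-Tg (12.5 ± 1.39 to 11.3 ± 0.341).

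**Figure D4:**
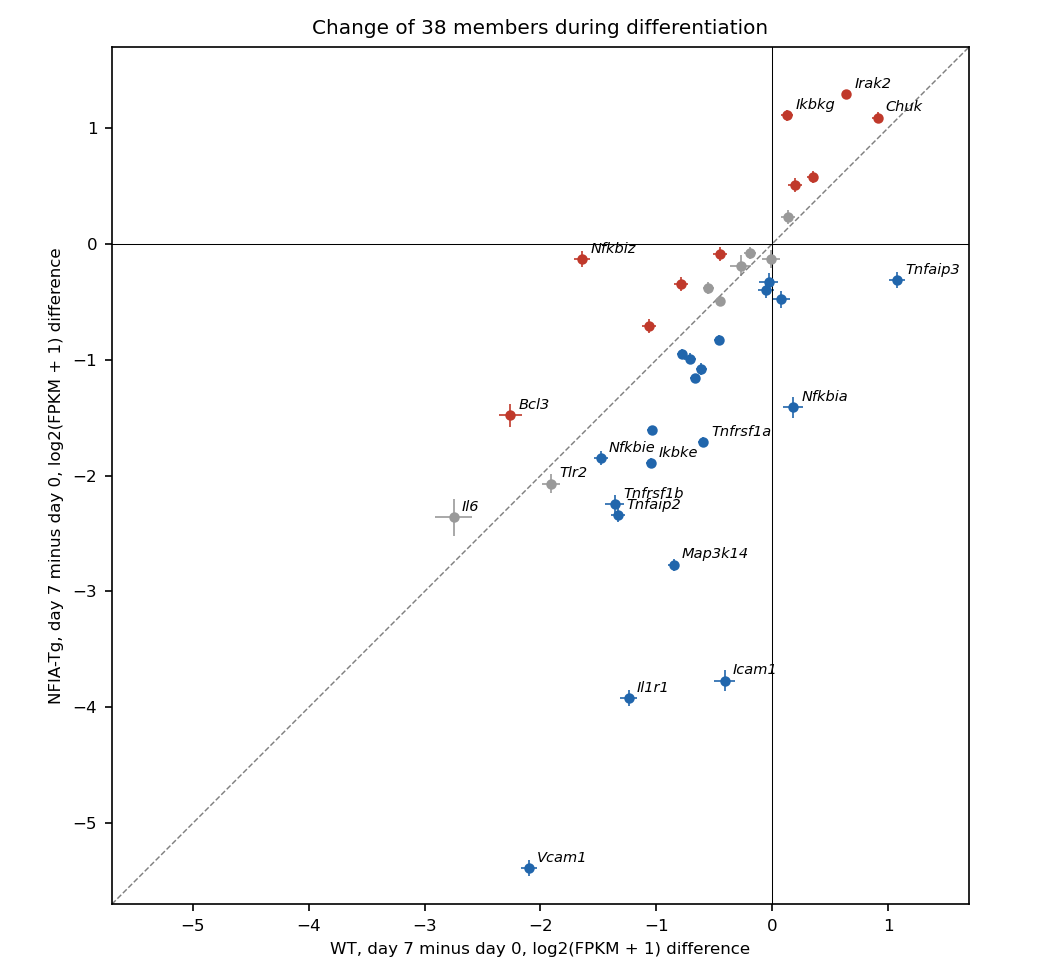
Change from day 0 to day 7 of the 38 measured members in WT (horizontal) and in the libraries labelled NFIA-Tg (vertical), as log2(FPKM + 1) differences with standard errors. The dashed line marks equal change, red and blue mark a called higher or lower genotype by differentiation difference, and grey marks none. Vcam1 lies lowest at -2.10 and -5.39, Icam1 and Il1r1 lie far below the line, and Nfkbiz and Bcl3 lie above it.

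For 30 of 38 members the genotype effect differed between day 7 and day 0 (10 higher, 20 lower at day 7 relative to day 0), where 72.1% of all genes differed, 29.5% higher and 42.6% lower. Quantile normalization gave 13 and 17, the all-gene median moving from -0.11 to 0.02. Of the 38 members, 8 were higher at day 0 and lower at day 7 in the libraries labelled NFIA-Tg, where 12.3% of all genes were: Icam1, Ikbke, Il1r1, Map3k14, Nfkbia, Tnfaip2, Tnfrsf1a and Vcam1. The reverse held for 3, Irak2, Nfkbiz and Tnip2, and for 6.88% of all genes. The difference was called in all 11. However, the day 0 call of Irak2 and the day 7 calls of Tnip2 and Icam1 were lost under some alternatives. For these genes the change of sign rests on a call that did not hold throughout. Another 9 were lower at both days, as were 22.5% of all genes (Nfkb1, Nfkb2, Rela, Nfkbie, Ikbkb, Myd88, Irak1, Tnfaip3 and Tlr2) and 5 higher at both, as were 10.9% of all genes (Relb, Chuk, Irak4, Il1rap and Tlr4). Nfia itself, against its label at day 7, was higher in the libraries labelled NFIA-Tg at day 0 and lower at day 7, as the first 8 were. Whether the labels of the day 7 cultures bear on these directions was not tested.

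The genotype effect in iWAT differed from that in day 7 cultures for 19 of 38 members (13 higher, 6 lower in iWAT relative to day 7), where 54.3% of all genes differed, 35.8% higher and 18.5% lower. The all-gene median of this contrast was 0.18 and moved to 0.01 under median-of-ratios scaling, where the all-gene split of 4690 higher and 2430 lower became 3355 and 3224 and that of the members 10 and 7. Vcam1 (2.47 ± 0.39) and Il1r1 (2.35 ± 0.14) had the largest differences, being not called in iWAT and lower at day 7. Tnfrsf1a, Tnfrsf1b and Tnfaip2 were lower in NFIA-Tg in iWAT and at day 7, as were 2.82% of all genes tested in both, with no called difference between the effects (0.24 ± 0.12, 0.11 ± 0.20 and -0.26 ± 0.23). Their iWAT calls were lost under 8, 5 and 6 alternatives in that order, all 3 without a filter on low values.

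Beyond the 40 members, 4 wider lists of pathway genes were counted. The lists were chosen with earlier results of these data known, so their shares and medians are descriptions and not independent support. In iWAT they are to be read against 5.96% of all genes called higher and 5.44% lower. Of 25 measured TNF family genes in iWAT, 1 was higher and 4 lower in NFIA-Tg. Ripk3, a kinase of necroptosis, fell from 8.8 ± 1.63 to 3.74 ± 0.375 FPKM, Tnfaip8l1 from 3.76 ± 0.59 to 1.65 ± 0.506, and Tnfsf13b, the B cell factor BAFF, rose from 1.5 ± 0.226 to 2.94 ± 0.431. Of 21 further NF-kB targets, 3 were higher and 4 lower. The chemokine genes Ccl2 (9.3 ± 1.67 to 1.77 ± 1.02, -1.94 ± 0.25) and Ccl7 (8.36 ± 3.36 to 2.37 ± 0.664) fell, and the complement gene C3 rose from 114 ± 22.7 to 498 ± 116. In the interleukin-1 and Toll-like receptor list 1 of 23 was called, Il18, higher (2.05 ± 0.0578 to 3.85 ± 0.492). In the list of kinases, ubiquitin editors and regulators 1 of 34 was called, the adaptor Bcl10, lower (16 ± 0.572 to 12 ± 0.647).

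In day 0 cultures, where 28.1% of all genes were called higher and 34.9% lower, 8 of 19 TNF family genes were higher and 6 lower, led by Tnfrsf21 (0.314 ± 0.0229 to 2.32 ± 0.333 FPKM), Tnfrsf12a (48.9 ± 3.1 to 31.7 ± 1.69) and Tnfrsf10b (17.9 ± 0.266 to 26.9 ± 1.3). Of 22 further targets 11 were higher and 5 lower. The interferon-inducible chemokine gene Cxcl10 was lower but spread widely (111 ± 55.5 to 17.2 ± 17.1), and Serpina3n (13.6 ± 3.19 to 56.6 ± 17.8) and the metalloproteinase gene Mmp3 (1.61 ± 0.239 to 7.12 ± 0.671) were higher. Of 19 interleukin-1 and Toll-like receptor genes 3 were higher and 10 lower, with Lbp, which presents lipopolysaccharide, higher (36.5 ± 4.58 to 151 ± 5.77), Peli2 higher (9.97 ± 0.735 to 23.8 ± 0.461) and Tlr3 lower (9.55 ± 1.97 to 3.59 ± 0.945). Of 32 regulators 6 were higher and 13 lower, among them Usp18 (88 ± 22.2 to 29.1 ± 14.5) and Nlrc5 (8.15 ± 1.54 to 3.99 ± 1.67) lower and Sharpin, part of the linear ubiquitin ligase, higher (17.1 ± 0.793 to 25.6 ± 0.399).

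At day 7, 51.1% of all genes were called lower and 29.8% higher. Of 22 further targets, 16 were lower and 4 higher in the libraries labelled NFIA-Tg. Their median difference was -0.99, beside -0.17 over all genes. Under quantile normalization the all-gene median moved to -0.03, and the wider lists were not counted there. Ccl2 read 38 ± 9.95 and 6.14 ± 1.48 FPKM and Ccl7 35 ± 7.21 and 6.18 ± 0.986, while Lcn2, the gene for lipocalin-2, was higher (26.6 ± 4.8 to 172 ± 41.9, 2.64 ± 0.28). Of 19 TNF family genes 14 were lower and 3 higher, with Traf5 (6.82 ± 0.519 to 2.08 ± 0.27), Ripk2 (15.3 ± 0.698 to 5.57 ± 0.438) and Tnfsf13b (2.04 ± 0.186 to 0.33 ± 0.0926) lower. Of 19 interleukin-1 and Toll-like receptor genes 10 were lower and 5 higher. Il1rn, the natural antagonist of interleukin-1, was lower (13.4 ± 1.73 to 2.34 ± 0.395), as were Tlr8 (2.74 ± 0.166 to 0.0114 ± 0.00379) and Il1rl2 (5.33 ± 0.725 to 1.08 ± 0.0963). Of 32 regulators 18 were lower and 10 higher, with Rnf11, an A20 partner, higher (65.1 ± 7.52 to 193 ± 17), and Nlrc5 (14.7 ± 0.00707 to 5.76 ± 0.858) and Usp18 (105 ± 8.83 to 47.4 ± 10.9) lower. The preadipocyte and fibroblast markers were called in 7 of 7 measured genes at day 7, 6 lower and 1 higher in the libraries labelled NFIA-Tg, with a median of -2.66, and their part in these differences was not tested.

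During differentiation, where 35.4% of all genes fell in WT and 41.5% in the libraries labelled NFIA-Tg, 15 and 19 of 22 further targets fell, with medians of -1.04 and -2.12. The chemokine gene Cxcl5 went from 114 ± 29.3 to 2.13 ± 0.583 FPKM in WT and from 103 ± 18.6 to 0.0577 ± 0.0188 in NFIA-Tg, Cxcl1 from 86.1 ± 11.4 to 4.35 ± 1.17 and from 175 ± 41 to 1.42 ± 0.411, and Ccl7 from 470 ± 13.5 to 35 ± 7.21 and from 486 ± 91.3 to 6.18 ± 0.986. TNF family genes fell in 12 and 14 of 19 and rose in 5 and 3. Tnfrsf10b (17.9 ± 0.266 to 5.9 ± 0.265 in WT and 26.9 ± 1.3 to 4.59 ± 0.319 in NFIA-Tg) and Tnfsf12 (6.72 ± 0.275 to 2.17 ± 0.399 and 8.86 ± 0.47 to 0.494 ± 0.093) fell in both, Tnfsf13b fell in NFIA-Tg (5.29 ± 1.12 to 0.33 ± 0.0926) and Traf4 rose in WT (17.3 ± 0.681 to 41.8 ± 1.05). Interleukin-1 and Toll-like receptor genes fell in 13 and 12 of 19 and rose in 2 and 2. The interleukin-33 receptor gene Il1rl1 went from 26.6 ± 1.18 to 0.827 ± 0.0896 in WT and from 11.2 ± 0.458 to 0.0419 ± 0.0221 in NFIA-Tg. Il33 fell in WT (3.39 ± 0.477 to 0.267 ± 0.0933), Il1rl2 (21.6 ± 1.7 to 1.08 ± 0.0963) and Il1rn (19.3 ± 4.17 to 2.34 ± 0.395) in NFIA-Tg, and Tlr8, listed at 0 in WT at day 0, reached 2.74 ± 0.166 at day 7. Of the regulators, 17 of 32 were higher and 8 lower in WT and 19 higher and 9 lower in NFIA-Tg, with medians of 0.18 and 0.32, near the all-gene shares of 46.2% and 45.7% higher. Tax1bp1 (45.6 ± 1.98 to 104 ± 1.83) and Tank (11.2 ± 0.791 to 22.2 ± 1.7) rose and N4bp1 (21.6 ± 1.06 to 11 ± 0.532) fell in WT. Rnf11 (38.6 ± 1.66 to 193 ± 17) and Nkiras2 (12.4 ± 0.571 to 30.6 ± 1.16) rose and Zc3h12a (17.9 ± 0.975 to 5.18 ± 0.534) fell in NFIA-Tg.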

How the data were processed

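FPKM values, 1 table per sample, were deposited by the authors. STAR 2.7.8a, StringTie 2.1.1 and build mm9 are listed, with no roles, in the submitters' processing notes, and the labels' protocols give a stranded mRNA library kit. The sources used here give neither annotation nor strand setting. Culture FPKM times length fell on whole multiples for 100% of values within 0.01, so reads were recovered; iWAT values did not give reads, and their listed length is a gene's span. In iWAT 410 entries shared 180 symbols and were summed. Within groups, log2(FPKM + 1) correlated at 0.988 to 0.993 in iWAT and 0.997 to 0.998 in cultures.

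Two-sided tests of log2(FPKM + 1) used limma 3.58.1 (R 4.3.3; eBayes, trend) on genes reaching FPKM 1 in 3 or more fitted samples, Benjamini-Hochberg adjusted over all genes tested. On this scale the changes of weakly expressed genes are understated. Fits used 6 iWAT samples, 12 culture samples, or the 6 iWAT with the 6 day 7 samples, for the effect in iWAT minus day 7. Folds are ratios of group mean FPKM. The test was checked on simulated data. Alternatives were a pseudocount of 0.1, no filter or one at FPKM 5, median-of-ratios and quantile scaling, a replicate block, voom on recovered reads and leaving out each library. All 40 members are accounted for. Nfkb1, Rela, Nfkbia, Tnfrsf1a, Tnf and Il6 are given in every sample, with up to 12 called members of largest change per comparison, and up to 3 called genes of at least 1 FPKM per wider list. Members and lists were chosen with earlier results of these data known.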

Additional observations from a re-analysis of the deposited data

Results flagged for a closer look

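A test of the difference itself (limma, adjusted p under 0.05) set the genotype effect at day 7 apart from that at day 0 for 30 members. Values are the effect at day 7 minus that at day 0, on the log2(FPKM + 1) scale. The effect was lower at day 7 for Nfkb1 (-0.17), Nfkb2 (-0.49), Rela (-0.37), Rel (-0.57), Nfkbia (-1.58), Nfkbie (-0.37), Ikbke (-0.84), Map3k14 (-1.91), Traf3 (-0.47), Birc3 (-0.28), Myd88 (-0.30), Irak3 (-0.57), Tnfaip3 (-1.39), Tnip1 (-0.35), Tnfrsf1a (-1.11), Tnfrsf1b (-0.89), Il1r1 (-2.68), Icam1 (-3.35), Vcam1 (-3.29) and Tnfaip2 (-1.01). It was higher at day 7 for Nfkbiz (1.52), Bcl3 (0.78), Ikbkg (0.98), Chuk (0.18), Traf2 (0.32), Birc2 (0.24), Irak2 (0.65), Irak4 (0.36), Tnip2 (0.44) and Il1rap (0.35). Nfkbie had 4 to 6 reads in each day 7 library labelled NFIA-Tg. The calls of Chuk and Myd88 were each lost under 8 alternatives (adjusted p = 0.0552 to 0.0801 for Chuk and 0.0522 to 0.155 for Myd88), that of Nfkb1 under both rescalings (adjusted p = 0.0608 and 0.738) and that of Birc3 under quantile normalization (adjusted p = 0.321).

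The same kind of test set the genotype effect in iWAT apart from that in day 7 cultures for 19 members, with values given as iWAT minus day 7. The effect was higher in iWAT for Nfkb1 (0.41), Rela (0.54), Rel (0.51), Nfkbia (1.18), Ikbkb (0.27), Ikbke (0.57), Map3k14 (1.39), Myd88 (0.60), Irak1 (0.66), Tnfaip3 (1.17), Il1r1 (2.35), Tlr2 (0.98) and Vcam1 (2.47). It was lower in iWAT for Relb (-0.67), Nfkbiz (-0.90), Bcl3 (-1.14), Ikbkg (-1.23), Irak2 (-1.38) and Irak4 (-0.91). The call of Ikbkb was lost under 11 alternatives (adjusted p = 0.0535 to 0.776), that of Nfkb1 under both rescalings (adjusted p = 0.0997 and 0.0923), that of Rela under median-of-ratios scaling (adjusted p = 0.0527) and that of Ikbke under quantile normalization (adjusted p = 0.083). The iWAT and culture tables were made separately, and each effect is a difference within its own table. Nfia itself was higher in NFIA-Tg iWAT and lower in the day 7 libraries labelled NFIA-Tg.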

How the results depend on the processing

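The iWAT count of 5 called members fell to 0 without a filter on low values and to 3 with the replicate block, and lay between 0 and 3 when 1 library was left out. At an unadjusted p under 0.05, 15 members passed in iWAT with the filter at FPKM 1. Every other count of called members (day 0, day 7, differentiation in both genotypes and both contrasts of effects) stayed within 1.5 times its value under every alternative that was run. Calls held under every alternative in which the member was tested for 23 of 27 members at day 0, 29 of 33 at day 7, 29 of 32 for differentiation in WT, 33 of 33 in NFIA-Tg, 26 of 30 for genotype by differentiation and 15 of 19 for iWAT against day 7. A member below the filter at FPKM 5 was not tested there. No called member reversed. Traf6 at day 7, not called at -0.05, became 0.16 and called under quantile normalization; the cause was not tested. Replicate numbers were not shown to pair samples, because deviations of same-numbered libraries did not correlate throughout (0.007 to 0.115 in iWAT and -0.108 to 0.156 in cultures). The replicate block gave the same counts as without it in all 5 culture comparisons, and 18 in place of 19 for iWAT against day 7, where Ikbkb lost its call (adjusted p = 0.0555). In iWAT it removed the calls of Tnfrsf1a (adjusted p = 0.0728) and Tnfaip2 (adjusted p = 0.0604). Where 1 library was left out, the spread of the remaining pair was pooled with the other groups. Depth limits Tnf, Traf1 in cultures, and Il6, Nfkbie and Tlr2 at day 7. In iWAT only the spread between 3 libraries shows the precision.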
